A study of Mus musculus with 4 samples.

Results

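Glutathione is the main small-molecule thiol of the cell, and 3 groups of its enzymes were examined in mouse kidney. The 10 genes were Gsta2, Gsta3, Gsta4, Gstm1, Gstm5, Gstp1, Gstt1, Gpx1, Gpx3 and Gclc, out of 12393 genes named on the array. They were found as every probe set that the platform annotation gives to one of them, whatever its values. This gave 15 probe sets with 1 gene symbol among 22626 that are not controls, and 1 further probe set, 1421041_s_at, that is annotated to Gm3776, Gsta2 and Gsta1 together. All 16 passed the expression filter, a mean log2 level over the 4 arrays of at least 6.27, as did 13576 probe sets in all.

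The samples were whole kidneys of C57BL/6 mice aged 17 weeks, male by their labels, with 1 array for each of 4 groups of a glomerulonephritis (GN) model, in which the filtering units are inflamed. GN+Captopril and GN+Water mice had intraperitoneal apoferritin, 10 mg on 5 days of the week, and 100 µg of lipopolysaccharide as adjuvant 3 times weekly, over 6 weeks, while Saline+Captopril and Saline+Water mice had 0.15 M NaCl by the same route. Captopril, which inhibits angiotensin converting enzyme, was given at 100 mg/kg/day in the drinking water of both captopril groups, and the study asked whether it lessens interstitial injury. Groups were of 6 mice and kidneys were taken after 9 weeks, but the labels do not say whether an array carried 1 mouse or a pool, so the differences below have no replicate check, no error and no p-value.

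Glutathione transferases join glutathione to reactive lipids, drugs and other electrophiles, and glutathione peroxidases use it to reduce peroxides. Glutamate-cysteine ligase, whose catalytic subunit is Gclc, carries out the rate-limiting step of glutathione synthesis. The kidney proximal tubule is rich in these enzymes and is the main source of the peroxidase Gpx3 in plasma. Several of the genes are known targets of the transcription factor Nrf2, which acts through antioxidant response elements.

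Among the arrays, 2 stood apart from the others. On the array with the label GN+Water, Xist was at 8.97, against 5.02 to 5.21 on the other 3, and the Y-linked Eif2s3y at 3.43, against 8.02 to 8.29, which goes against the male label. Of 9 genes known to differ between male and female mouse kidneys, 6 were at least 1.5-fold lower and 3 higher on this array than on Saline+Water. The spike-in controls had a median of 7.46 to 7.89 on the other 3 arrays and 10.8 on Saline+Water, whose correlation with the others over all probe sets was 0.945 to 0.966. GN+Captopril and Saline+Captopril correlated at 0.994, and the comparison of these 2 uses neither discordant array. All 11 proximal tubule markers with a probe set lay past the filter, so the kidney label matched its markers. Whole kidney was measured, so fewer cells of a type and less RNA per cell cannot be told apart.

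The alpha class genes Gsta4, Gsta1, Gm3776 and Gsta2 follow one another on mouse chromosome 9, with a few other gene models between them, and 1 probe set is annotated to the last 3. A stretch of their promoters was compared. It was picked for aligning without a gap, so its identity need not hold for the whole promoters. The longest stretch that aligns without a gap between the Gsta2 and Gsta1 promoters in RefSeq (GRCm38.p6), 136 bases long and before the start of the gene, is given for the 3 genes, with capitals where they are not all the same.
Gsta2: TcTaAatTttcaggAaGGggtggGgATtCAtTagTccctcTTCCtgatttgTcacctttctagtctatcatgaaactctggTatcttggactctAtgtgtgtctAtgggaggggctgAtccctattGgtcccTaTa
Gsta1: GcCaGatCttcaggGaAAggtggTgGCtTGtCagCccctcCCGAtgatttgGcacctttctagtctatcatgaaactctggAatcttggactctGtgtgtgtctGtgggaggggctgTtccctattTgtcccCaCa
Gm3776: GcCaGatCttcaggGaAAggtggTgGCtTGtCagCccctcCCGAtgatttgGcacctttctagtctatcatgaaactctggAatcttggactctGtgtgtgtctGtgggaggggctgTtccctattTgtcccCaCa
These stretches lie at chr9:78347183-78347318 on the minus strand for Gsta2, chr9:78230499-78230634 on the plus strand for Gsta1 and chr9:78256972-78257107 on the plus strand for Gm3776. Gsta2 shared 110 of the 136 bases with Gsta1, an identity of 80.9%, and Gsta1 and Gm3776 differed at 0 of them. By its annotation alone, signal on 1421041_s_at cannot be given to 1 of the 3 genes. Neither transcripts nor probes were compared.

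Gsta4 and Gsta2 were the members with a large range over the arrays. Gsta4 spanned 2.43 log2 units, or 5.38-fold, and Gsta2 2.06 units, or 4.16-fold, while the median range was 0.30 over the 15 member probe sets and 0.53 over all probe sets past the filter. Of those probe sets, 1.75% had a larger range than Gsta4 and 2.90% a larger one than Gsta2. The other 13 probe sets with 1 symbol, of 8 genes, had ranges of 0.08 to 0.52.

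**Figure D1:**
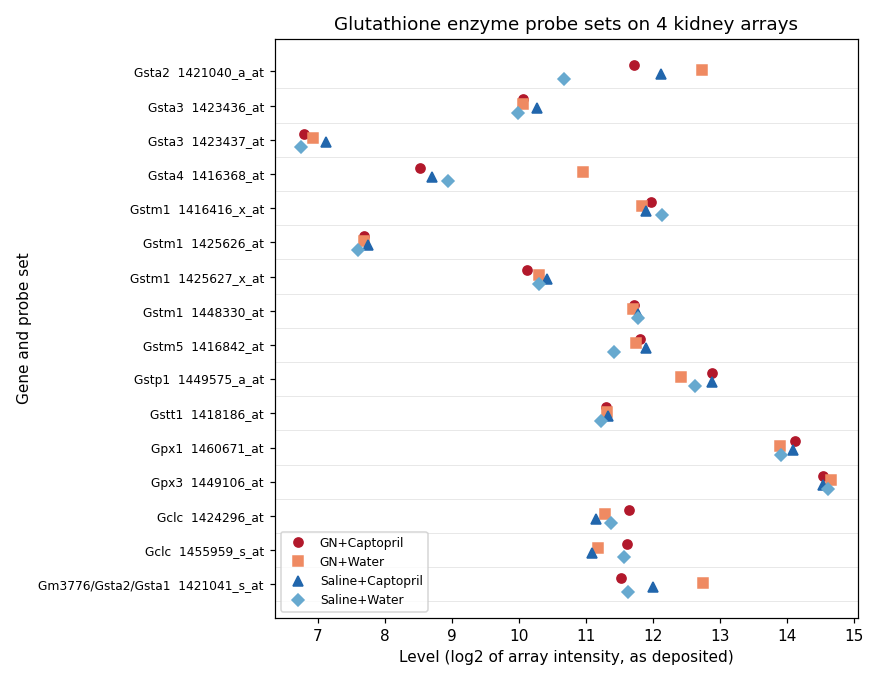
Each row is 1 probe set and each point its deposited log2 level on 1 array, with circles for GN+Captopril, squares for GN+Water, triangles for Saline+Captopril and diamonds for Saline+Water. Gsta4 and both Gsta2 probe sets are highest on the array with the label GN+Water, and in the other rows the 4 points span at most 0.52.

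Gsta4, whose enzyme conjugates 4-hydroxynonenal, a toxic product of lipid peroxidation, was high on 1 array. Its probe set 1416368_at stood at 8.53 on GN+Captopril, 10.96 on the array with the label GN+Water, 8.70 on Saline+Captopril and 8.95 on Saline+Water. Without its highest array, the other 3 levels spanned 0.42. Gsta4 was 4.03-fold higher on the array with the label GN+Water than on Saline+Water (log2 difference 2.01), and 5.38-fold lower on GN+Captopril than on the array with the label GN+Water (−2.43). On GN+Captopril relative to Saline+Captopril it differed by −0.17. The array on which Gsta4 was high is the one with high Xist and low Eif2s3y, and the part of the animals' sex in the Gsta4 level was not tested. Set against Saline+Captopril the array with the label GN+Water differed by 2.26, and GN+Captopril set against Saline+Water differed by −0.42.

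Gsta2, which encodes another alpha class subunit, was high on the array with the label GN+Water and low on Saline+Water. Probe set 1421040_a_at stood at 11.71 on GN+Captopril, 12.73 on the array with the label GN+Water, 12.12 on Saline+Captopril and 10.67 on Saline+Water. It was 4.16-fold higher on the array with the label GN+Water than on Saline+Water (log2 difference 2.06), 2.72-fold higher on Saline+Captopril relative to Saline+Water (1.45), and 2.03-fold lower on GN+Captopril than on the array with the label GN+Water (−1.02). The shared probe set 1421041_s_at stood at 11.53 on GN+Captopril, 12.74 on the array with the label GN+Water, 12.00 on Saline+Captopril and 11.62 on Saline+Water. Both put the array with the label GN+Water highest, but they did not place Saline+Water alike. The shared probe set was 1.30-fold higher on Saline+Captopril relative to Saline+Water, under the threshold, where 1421040_a_at gave 2.72-fold. Relative to Saline+Captopril in place of Saline+Water, the array with the label GN+Water was higher by 0.61 for 1421040_a_at and by 0.74 for the shared probe set. On GN+Captopril relative to Saline+Captopril, both were a little lower, by −0.41 and −0.47.

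Gsta3, an alpha class enzyme known in mice for detoxifying aflatoxin epoxide, lies on chromosome 1, apart from the chromosome 9 group. Its probe set 1423436_at stood at 10.06 on GN+Captopril, 10.06 on the array with the label GN+Water, 10.26 on Saline+Captopril and 9.98 on Saline+Water. The second, 1423437_at, stood at 6.80 on GN+Captopril, 6.93 on the array with the label GN+Water, 7.12 on Saline+Captopril and 6.75 on Saline+Water. Both were highest on Saline+Captopril and lowest on Saline+Water, with ranges of 0.28 and 0.37. On GN+Captopril relative to Saline+Captopril they were lower by −0.20 and −0.32, the same direction as Gsta2 and Gsta4.

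The mu class member Gstm1 was covered by 4 probe sets, whose differences were at most 0.30 in size in any of the 4 comparisons. Probe set 1448330_at, the steadiest of them, stood at 11.72 on GN+Captopril, 11.70 on the array with the label GN+Water, 11.78 on Saline+Captopril and 11.77 on Saline+Water. The ranges of 1416416_x_at, 1425626_at and 1425627_x_at were 0.30, 0.15 and 0.30. The suffix _x_at marks probes that can bind other transcripts, and the mu class genes resemble each other. The 4 probe sets did not all share a sign in any of the 4 comparisons, with differences from −0.30 to 0.10 for the array with the label GN+Water minus Saline+Water and from −0.30 to 0.07 for GN+Captopril minus Saline+Captopril. Gstm5, another mu class gene, stood at 11.80 on GN+Captopril, 11.74 on the array with the label GN+Water, 11.89 on Saline+Captopril and 11.41 on Saline+Water. Saline+Water was the low array, 0.33 below its nearest neighbour, and the other 3 spanned 0.15.

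Gstp1 encodes the pi class enzyme, and Gstp2 is its neighbouring copy in the genome, so the probe set may not separate them. Its probe set 1449575_a_at stood at 12.89 on GN+Captopril, 12.42 on the array with the label GN+Water, 12.87 on Saline+Captopril and 12.63 on Saline+Water. The levels on both captopril arrays were above those on both water arrays, with differences of 0.47 in GN mice and 0.24 in saline mice, each under 1.5-fold. Both water arrays are the discordant ones, so captopril and these array features cannot be told apart. GN+Captopril and Saline+Captopril differed by 0.01. Gstt1, the theta class enzyme that acts on small halogenated molecules, was steady at 11.30 on GN+Captopril, 11.31 on the array with the label GN+Water, 11.33 on Saline+Captopril and 11.22 on Saline+Water. Its range of 0.10 was exceeded by 95.4% of the probe sets past the filter.

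Of the selenium-containing peroxidases, Gpx1 reduces hydrogen peroxide inside cells and Gpx3 is secreted. Gpx1 stood at 14.11 on GN+Captopril, 13.90 on the array with the label GN+Water, 14.08 on Saline+Captopril and 13.91 on Saline+Water. As for Gstp1, both captopril arrays lay above both water arrays, here by 0.22 in GN mice and 0.17 in saline mice. Gpx3 stood at 14.53 on GN+Captopril, 14.65 on the array with the label GN+Water, 14.53 on Saline+Captopril and 14.61 on Saline+Water. The split ran the other way from that of Gpx1, with both captopril arrays below both water arrays, over a range of 0.12. On each captopril array 1 probe set was higher than Gpx3, and on both water arrays it gave the highest value of any probe set. A signal this near the top of the scale can hide a difference in RNA amount.

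Gclc was the member that differed most between GN+Captopril and Saline+Captopril. Probe set 1424296_at stood at 11.64 on GN+Captopril, 11.28 on the array with the label GN+Water, 11.16 on Saline+Captopril and 11.37 on Saline+Water. Probe set 1455959_s_at stood at 11.62 on GN+Captopril, 11.18 on the array with the label GN+Water, 11.09 on Saline+Captopril and 11.56 on Saline+Water. Both gave the same order of arrays, with GN+Captopril highest and Saline+Captopril lowest. The log2 difference of these 2 arrays was 0.48 for the first probe set, or 1.40-fold, and 0.52 for the second, or 1.44-fold, which is under the 1.5-fold threshold. Among all probe sets past the filter, 2.40% and 2.14% were more positive in that comparison. On the array with the label GN+Water relative to Saline+Water the sign was the other way, at −0.09 and −0.38. Captopril against water also differed in sign, at 0.36 and 0.43 in GN mice and −0.21 and −0.47 in saline mice. Each of these differences uses a discordant water array, so the injection, captopril and these array features cannot be told apart. Of all probe sets past the filter, 37.7% and 19.6% had a larger gap between the GN and saline differences. Gclm, the regulatory subunit that pairs with Gclc, falls outside the rule for named genes and is given as its partner. It stood at 11.51 on GN+Captopril, 11.13 on the array with the label GN+Water, 11.40 on Saline+Captopril and 11.36 on Saline+Water. Its difference between GN+Captopril and Saline+Captopril was 0.11.

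**Figure D2:**
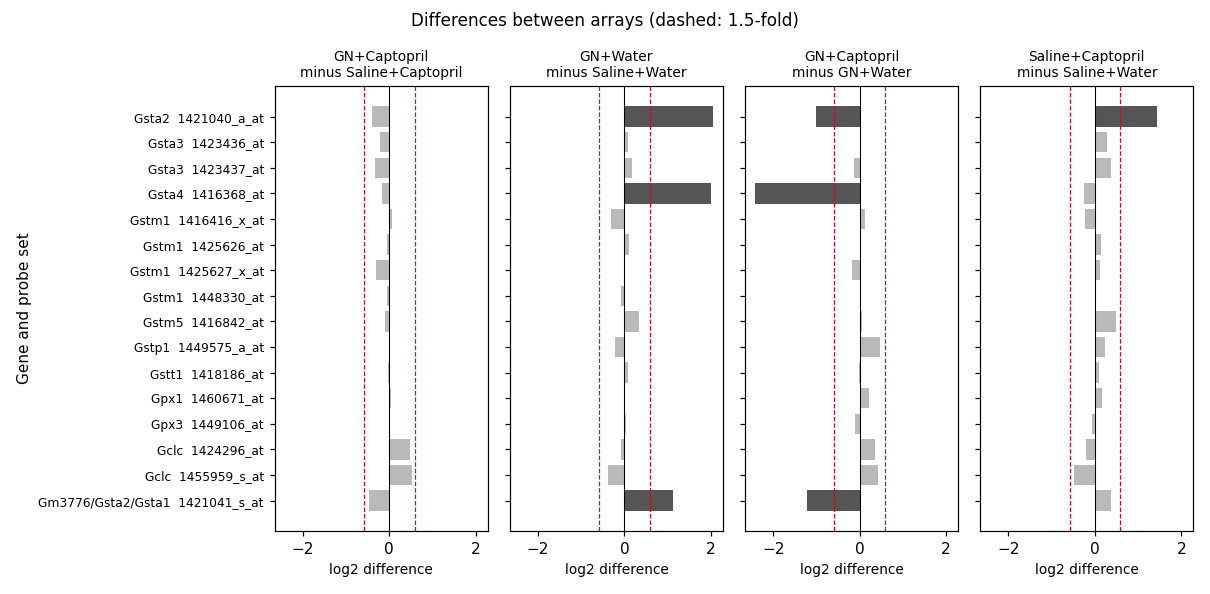
Bars give the log2 difference of each probe set in 4 comparisons of 2 arrays each, dark where at least 1.5-fold, with dashed lines at that threshold. The panel of GN+Captopril minus Saline+Captopril has no dark bar, and the dark bars elsewhere belong to Gsta2, Gsta4 and the probe set annotated to Gm3776, Gsta2 and Gsta1.

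In the comparison of GN with saline on captopril, 0 of 15 member probe sets were at least 1.5-fold higher and 0 lower, against 1.8% higher and 0.184% lower over all probe sets past the filter. The members' differences ran from −0.41 for Gsta2 to 0.52 for Gclc, with a median of −0.048 against 0 over all. In the same comparison 9 of 10 macrophage markers were at least 1.5-fold higher, with a median difference of 1.26. Of 5 adipose markers 3 were higher and 0 lower, with a median difference of 0.73. They were Adipoq at 1.15, Cidec at 1.03 and Fabp4 at 0.73, while Lep differed by −0.23. Of 7 adrenal markers 2 were higher, Hsd3b1 at 1.43 and Cyp11a1 at 0.60, and 0 lower, with a median of 0.10. Cidec and Cyp11a1 did not pass the expression filter. The part of these markers in the members' differences was not tested. In the comparison of GN with saline on water, 2 of 15 were at least 1.5-fold higher, Gsta2 and Gsta4, and 0 lower, against 21% and 16.1% of all probe sets. Beside these calls of Gsta2 and Gsta4, 10 of 10 macrophage markers were at least 1.5-fold higher on the array with the label GN+Water than on Saline+Water, with a median difference of 2.19. The median macrophage marker level was 9.76 on GN+Captopril, 10.60 on the array with the label GN+Water, 8.42 on Saline+Captopril and 8.07 on Saline+Water. Of the 5 adipose markers 3 were higher and 1 lower, with Adipoq at 2.02. The part of these markers in the Gsta2 and Gsta4 levels was not tested. The median was 0.045 for the members and 0.0063 for all, and the 13 other member probe sets lay between −0.38 and 0.33. The median size of the difference, without its sign, was 0.097 for the members and 0.42 over all probe sets.

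For captopril against water in GN mice, 0 of 15 member probe sets were at least 1.5-fold higher and 2 lower, again Gsta2 and Gsta4, against 3.59% higher and 4.12% lower over all. The 13 others lay between −0.18 and 0.47. Here 8 of 10 macrophage markers were lower and 0 higher, with a median difference of −0.75, and 2 of 5 adipose markers were higher. For captopril against water in saline mice, 1 of 15 was at least 1.5-fold higher, Gsta2, and 0 lower, against 17.5% and 11.2% over all. The 13 probe sets of the genes other than Gsta2 and Gsta4 lay between −0.47 and 0.48 there. Of the macrophage markers 1 of 10 was higher and 1 lower in that comparison, and of the adipose markers 1 of 5 and 1. These comparisons share arrays with one another, so the calls of Gsta2 and Gsta4 in them are not separate observations. Each comparison of captopril with water uses a discordant array, so captopril and the features of that array cannot be told apart.

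The genes whose profile over the 4 arrays lay nearest to that of Gsta4, by Euclidean distance between centred log2 levels among 8203 genes, were Cbr1, Akr1c18, Foxq1, Elovl6 and Acot7. Cbr1, a carbonyl reductase that acts on lipid aldehydes and quinones, lay at a distance of 0.21 and stood at 8.95 on GN+Captopril, 11.33 on the array with the label GN+Water, 9.18 on Saline+Captopril and 9.14 on Saline+Water. Akr1c18, which inactivates progesterone and is known to be more abundant in female mouse kidney, lay at 0.27 and stood at 8.23 on GN+Captopril, 10.88 on the array with the label GN+Water, 8.28 on Saline+Captopril and 8.54 on Saline+Water. The other three lay at 0.49 to 0.58. All 5 were high on the array with the label GN+Water, by 1.48 to 2.34 relative to Saline+Water. For Gsta2, a search added after seeing the data found Gca, Etnk1, Kdm6a, Heph and Cytip, at distances of 0.18 to 0.29.

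**Figure D3:**
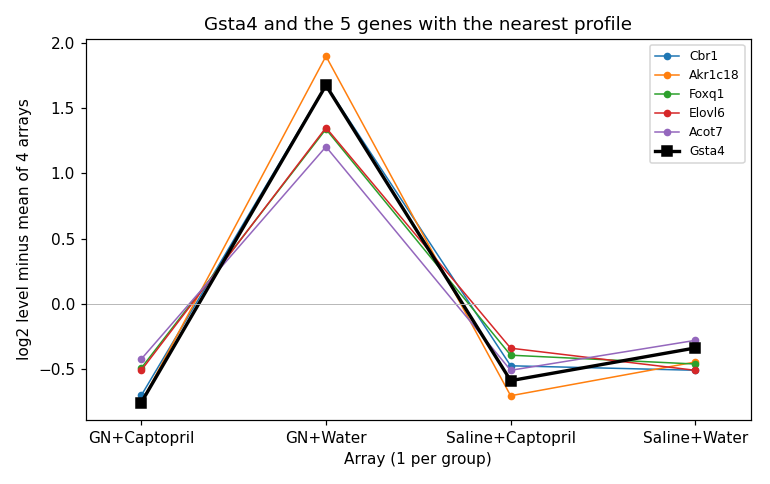
Centred log2 levels of Gsta4 (black squares) and of the 5 genes nearest to it are plotted on the 4 arrays, with lines joining the points of a gene. Each gene is highest on the array with the label GN+Water, and on the other 3 arrays lies below its own mean.

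Other genes of glutathione metabolism and antioxidant defence were taken as 5 lists, with 1 probe set per gene. On GN+Captopril relative to Saline+Captopril, 0 of the 12 other glutathione transferases, 0 of the 4 other peroxidases, 0 of 16 genes of glutathione synthesis, recycling and breakdown, 0 of 23 Nrf2 targets and regulators and 0 of 17 other antioxidant genes past the filter were at least 1.5-fold apart, against 1.85% higher and 0.207% lower over 8204 genes. The list medians were between −0.058 and 0.033. Of these genes, Pon3, a lactonase of the paraoxonase family, had the largest difference, 0.37, at 6.85 on GN+Captopril and 6.48 on Saline+Captopril. Gpx7, a peroxidase of the endoplasmic reticulum, followed at 0.36, with 6.30 on GN+Captopril and 5.94 on Saline+Captopril. Both genes were near the filter level of 6.27, and on Saline+Captopril Gpx7 was under it. Chac2, which breaks glutathione down, and Prdx4, a peroxiredoxin, each differed by 0.26, and Dpep1, a brush border peptidase that splits cysteinylglycine, by 0.16. Gstm2 differed by 0.21 and Gstm3 by −0.22, while the quinone reductase gene Nqo1 differed by −0.24, Tkt by −0.25, the efflux pump gene Abcc2 by −0.12, and Gpx4, which protects membranes from lipid peroxidation, by −0.13.

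On the array with the label GN+Water relative to Saline+Water, members of these lists differed in both directions, and 19.6% of all genes were past the 1.5-fold threshold upwards and 15.3% downwards. Among the other transferases 2 of 12 were at least 1.5-fold higher and 1 lower. Mgst1, a microsomal transferase, was 2.97-fold higher, with levels of 11.46 on GN+Captopril, 11.92 on the array with the label GN+Water, 11.64 on Saline+Captopril and 10.35 on Saline+Water, so Saline+Water was the array apart. Gstm2 was 1.55-fold higher and Gstz1, which isomerises a tyrosine breakdown product, 1.76-fold lower. Of the other peroxidases, 0 of 4 were past the threshold, and Gpx6 (−0.11) and Gpx8 (0.10) were the nearest to 0 after Gpx4.

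Of the genes of glutathione synthesis, recycling and breakdown, 1 of 16 was at least 1.5-fold higher on the array with the label GN+Water than on Saline+Water and 4 lower. Chac2 was 2.39-fold higher, with 9.19 to 9.84 on the other 3 arrays and 7.94 on Saline+Water, which was again the low one. Oplah, which recycles oxoproline to glutamate, was 1.95-fold lower, and Anpep, a peptidase of the brush border, 1.73-fold lower. Of the Nrf2 list, 7 of 23 were higher and 5 lower. The 5 lower genes fall outside the rule for named genes and are given after their values were seen. They were Me1 at −1.32, Osgin1 at −0.99, Mafg at −0.74, Mafk at −0.66 and Keap1 at −0.64. Cbr3, a carbonyl reductase, was 5.13-fold higher, with 6.93 on GN+Captopril, 8.14 on the array with the label GN+Water, 6.73 on Saline+Captopril and 5.78 on Saline+Water. Cbr1 was 4.54-fold higher. Aldh1a1, a retinaldehyde dehydrogenase, was 3.15-fold higher, with 8.36 to 8.58 on the other 3 arrays and 6.87 on Saline+Water. Of the other antioxidant genes, 3 of 17 were higher and 4 lower. Pon3 was 2.51-fold and Selenow, a small selenoprotein, 2.47-fold higher, and Pon2 2.08-fold, while Sod3, the extracellular superoxide dismutase, was 2.12-fold lower.

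For captopril against water in GN mice, the list of glutathione synthesis, recycling and breakdown had 4 of 16 genes at least 1.5-fold higher and 0 lower, where over all genes 3.71% were higher and 4.52% lower. The list's median was 0.25. This comparison uses the array with the label GN+Water, a discordant array, so captopril and the features of that array cannot be told apart. The 4 genes were Lap3 and Oplah at 1.64-fold, Abcc2 at 1.63-fold and Chac2 at 1.57-fold higher. Of these, Lap3 falls outside the rule for named genes. For Oplah the array with the label GN+Water was the lowest of the 4, at 9.18 against 9.82 to 10.15. For Abcc2 it stood at 8.89 and Saline+Water close to it at 8.93, both below GN+Captopril at 9.60 and Saline+Captopril at 9.72. In the Nrf2 list 1 of 23 was higher and 3 lower, with Cbr1 at 5.20-fold lower and Cbr3 at 2.32-fold lower. Of the other transferases 1 of 12 was higher and 1 lower, of the other peroxidases 0 of 4 and 1, and of the other antioxidant genes 2 of 17 and 2. For captopril against water in saline mice, 8 of 23 genes of the Nrf2 list were higher and 1 was lower, where over all genes 15.6% were higher and 10.2% lower. The list's median was 0.30. The comparison uses Saline+Water, a discordant array. The list holds regulators as well as targets, and the counted genes include the regulators Bach1 at 0.62 and Keap1 at −0.63. Aldh1a1 was 3.26-fold higher. Nqo1 was 1.97-fold higher, at 9.24 on Saline+Captopril against 8.26 on Saline+Water, and at 9.00 on GN+Captopril and 8.54 on the array with the label GN+Water. In the same comparison 2 of 12 other transferases were higher and 0 lower, and 0 of 4 other peroxidases were higher and 2 lower. The synthesis list had 2 of 16 higher and 1 lower, and the other antioxidant list 2 of 17 higher and 1 lower.

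**Figure D4:**
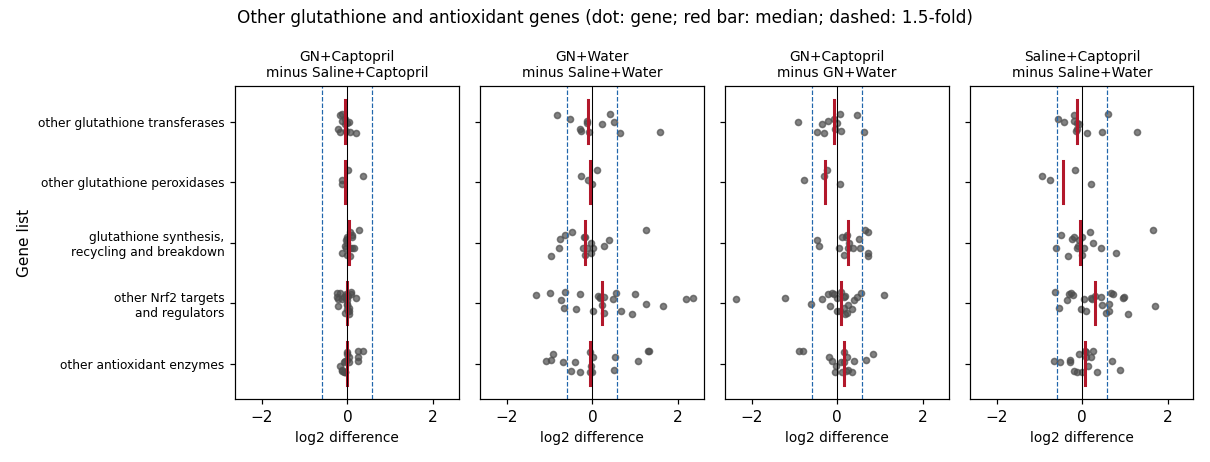
Each point is a gene past the expression filter, placed by its log2 difference in 4 comparisons of 2 arrays, with red bars at list medians and dashed lines at 1.5-fold. In the panel of GN+Captopril minus Saline+Captopril the points lie between the dashed lines, and they spread past them in the 3 panels that use a discordant array.

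RefSeq promoter windows of 300 bases, from 250 before the start to 50 after it, were found for 8 of the 10 genes, Gsta4 and Gclc aside, in 9 windows. The core of the antioxidant response element, TGACNNNGC, searched on both strands, was in 2 of the 9 windows, those of Gsta3 and Gstm5, and in 12.4% of all 32851 windows. The related AP-1 motif TGACTCA, which the core can overlap, was in 2, those of Gstm5 and Gstp1, and in 5.20% of all. The stretches of these genes are shown because such elements are known from the promoters of rodent transferases, with the motif in capitals.
Gsta3: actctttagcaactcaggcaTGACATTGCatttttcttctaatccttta
Gstm5: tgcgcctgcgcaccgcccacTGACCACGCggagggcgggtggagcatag
Gstp1: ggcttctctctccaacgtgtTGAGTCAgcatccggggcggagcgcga
The Gsta3 stretch lies at chr1:21240444-21240492 on the plus strand, with the core beginning 121 bases before the start. The Gstm5 stretch lies at chr3:107895792-107895840 on the plus strand, with the core 42 bases before the start. In Gstp1, at chr19:4037960-4038006 on the minus strand, the AP-1 motif is read on the opposite strand, 74 bases before the start. Levels of these 3 genes spanned at most 0.48 over the 4 arrays, and a match in a promoter window is a description only.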

How the data were processed

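The authors deposited 1 log2 value per probe set and array, with 22690 probe sets on each of 4 arrays, and the log2 scale is judged from the range of the values. Per the submitters' processing notes, GCOS and RMA were used, with no version or role given, while the sources used here give no background correction, normalisation or build. Biotinylated cRNA came from 6 µg of total RNA, per the labels' protocols. Values were used as deposited. Array medians were 6.93 to 6.99, and 16.9% of probe sets had equal values on 2 or more arrays, so exact ties occur.

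The 64 control probe sets were left out. Of the other 22626, 20380 had 1 symbol, 691 several and 1555 none in the platform annotation. Symbols were updated through the Entrez ID with the RefSeq table of GRCm38.p6 for 20351. The expression filter was the 40th percentile of the mean level. In gene lists, the probe set of highest mean stood for its gene. A difference is a log2 level on 1 array minus that on another, and 1.5-fold was the threshold for counting.

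The design has 0 residual degrees of freedom. A fit in which GN and captopril add up would leave 1 and was not run, since it assumes what the comparisons ask. The number of arrays limits the precision, and no test between groups was made.

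The members, lists and alternatives were chosen with earlier results of these data known. Named genes were the members, the 3 genes of each list with the largest difference in each of the 2 comparisons of GN with saline, and the 5 genes nearest to the member with the largest range. Alternatives were median centring, quantile and cyclic loess normalisation (limma 3.58.1), other filters, a 2-fold threshold, other choices of probe sets and exchanged arrays. The calculation was tested on simulated data. Promoters came from RefSeq.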

Additional observations from a re-analysis of the deposited data

Results flagged for a closer look

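Member probe sets and the list genes that the naming rule picked were examined, and for 8 of them the GN difference had opposite signs on captopril and on water, with at least 1 of both at 1.5-fold or more. Of the 49 other list genes past the filter, 4 showed the same pattern, Glrx2, Keap1, Mafk and Akr1b8, which are named here after their values were seen. The rule had already taken the genes with the largest GN differences from each list, so these 49 are no background for the 8. The pattern was not counted over all probe sets. In the comparison on water alone, 21% of all probe sets past the filter exceeded the threshold upwards and 16.1% downwards. Whether 8 is more than such a background would give is thus not known. With 1 array per group, the difference between the GN differences on captopril and on water was not tested. It is the difference of GN+Captopril minus Saline+Captopril less that of GN+Water minus Saline+Water, so it uses both discordant arrays. Gsta2 (1421040_a_at) had −2.47, Gsta4 −2.18 and the probe set annotated to Gm3776, Gsta2 and Gsta1 −1.59. Among the list genes it was −1.75 for Mgst1, −2.41 for Cbr1 and −1.87 for Aldh1a1, and it was 1.03 for Oplah and 0.86 for Anpep. The GN difference on captopril was only −0.18 for Mgst1, −0.23 for Cbr1, −0.22 for Aldh1a1, 0.066 for Oplah and 0.066 for Anpep. It was −0.41 for Gsta2, −0.17 for Gsta4 and −0.47 for the shared probe set, against a median size of 0.080 over all. The larger part of each value thus came from the comparison on water. On the log2 scale, 1.06% of the probe sets past the filter had a larger such value than Gsta2, and 1.68% a larger one than Gsta4.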

How the results depend on the processing

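No paired analysis was possible because each group has 1 array and the labels carry no replicate numbers. Leaving out a replicate was not possible for the same reason. A median or single value was taken as moved when it shifted by more than the median spread between probe sets of a gene, which was 0.11 to 0.67 by comparison. Without probe sets ending in _s_at, _x_at or _a_at, a choice that removes Gsta2 among others, 1 member in place of 2 was higher on GN+Water than on Saline+Water, 1 in place of 2 lower on GN+Captopril than on GN+Water, and 0 in place of 1 higher on Saline+Captopril relative to Saline+Water. When GN+Captopril stood in for the array with the label GN+Water, 1 member instead of 2 was higher than on Saline+Water, Gsta4 turned to −0.42, the shared probe set to −0.097, and Gsta2 was at 1.04. With Saline+Captopril as the baseline, Gsta2 was at 0.61. On GN+Captopril against Saline+Captopril, the count stayed at 0 in both directions under the alternatives run, with Gclc between 0.45 and 0.52 under the 3 normalisations. The medians of member probe sets ran from −0.087 to 0.14 over all alternatives. List medians, under the mean of all probe sets, quantile normalisation and no filter, shifted by less than that spread. In the comparisons with Saline+Water the spread was 0.67 and 0.63, above the 1.5-fold threshold of 0.585 and above every list median in size. A median could change sign there and still count as not moved, so this says little about them.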
